A study of Mus musculus with 3 samples.

Results

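Rmrp, Rpph1, Rn7s1, Rn7s2 and Terc encode the RNA parts of 4 ribonucleoprotein machines, and their levels were followed here in chromatin-fraction RNA of mouse macrophages. The genes were chosen by symbol, and every gene id carrying a symbol was kept. The 5 symbols gave 6 gene ids of 55536 in the annotation, because Rmrp has 2 ids. All 3 libraries came from 1 group, C57BL/6J bone marrow-derived macrophages (macrophages grown from marrow cells) exposed to Lipid A, the toll-like receptor 4 ligand of bacterial lipopolysaccharide, at 100 ng/ml for 60 min. They are labelled biological replicates 1, 2 and 3 and were made from 1000, 250 and 500 ng of RNA, all under 1 donor entry, and the sex and age of the mice were not collected. RNA was taken from the chromatin fraction and depleted of ribosomal RNA, and the labelled size range is 250-400 (unit not given in the sources used here). There was no untreated group and no other cell fraction among the 3 libraries, so no value below is a response to Lipid A or an enrichment on chromatin.

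RNase P is the enzyme that removes the 5′ leader from tRNA precursors, and Rpph1 is its RNA. RNase MRP shares most of its proteins with RNase P, cuts the ribosomal RNA precursor, and has Rmrp as its RNA. The signal recognition particle (SRP) carries ribosomes that make secreted or membrane proteins to the endoplasmic reticulum, on a scaffold of SRP RNA, also called 7SL, which Rn7s1 and Rn7s2 encode. Terc is the template RNA of telomerase, which adds repeats to chromosome ends. Rmrp, Rpph1 and SRP RNA are made by RNA polymerase III, and Terc by RNA polymerase II.

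The sequences below are shown because they set which reads can be told apart. All are from GENCODE M21 transcripts, on the mm10 build, written 5′ to 3′ as DNA letters. The 2 Rmrp ids lie on the minus strand of chromosome 4. The shorter one, ENSMUSG00000088088.1, is annotated as a ribozyme of 271 bases at chr4:43492788-43493058. The longer one, ENSMUSG00000115420.1, is annotated as a lincRNA of 281 bases at chr4:43492783-43493063 and holds the whole shorter sequence with 5 more bases at each end, which are in capitals here. RefSeq places Rmrp between the 2, at chr4:43492785-43493059, with 275 bases.
Rmrp longer id, bases 1 to 40 (chr4:43493024-43493063): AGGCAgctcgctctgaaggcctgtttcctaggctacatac
Rmrp longer id, bases 165 to 281 (chr4:43492783-43492899): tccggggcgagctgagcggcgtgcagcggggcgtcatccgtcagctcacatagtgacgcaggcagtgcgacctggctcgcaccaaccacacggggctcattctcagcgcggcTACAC
Every one of the 241 words of 31 bases in the shorter id is also in the longer one, so a read inside those 271 bases fits both ids.

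Rn7s1 and Rn7s2, on the plus and the minus strand of chromosome 12, are annotated as misc_RNA of 300 bases. Their sequences are identical over all 300 bases, so no read can tell one from the other.

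Rpph1 (ENSMUSG00000092837.1) is annotated as a ribozyme of 319 bases at chr14:50807449-50807767 on the minus strand. Its bases 36 to 268 lie in 31-base words of transcripts of Ccnb1ip1, a coding gene on the same strand that overlaps it by 284 bases. The ends outside those words are shown. Bases 1 to 35 lie outside the Ccnb1ip1 gene, and bases 269 to 319 lie inside it but in none of its annotated spliced transcripts' words, so unspliced Ccnb1ip1 RNA could also give reads there.
Rpph1, bases 1 to 35 (chr14:50807733-50807767): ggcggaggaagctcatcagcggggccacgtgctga
Rpph1, bases 269 to 319 (chr14:50807449-50807499): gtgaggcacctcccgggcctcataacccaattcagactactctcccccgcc

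Terc (ENSMUSG00000064796.1) is annotated as misc_RNA of 423 bases at chr3:96414437-96414859 on the minus strand. RefSeq gives 397 bases, because the GENCODE model starts 26 bases further 5′. The capitals in the first stretch mark the single match on this strand to CTAACC, the complement of 1 telomere repeat, which begins at base 29 of the GENCODE model and at base 3 of the RefSeq one. The capitals in the second mark the last ACA, the triplet of an H/ACA RNA, which stands 3 bases before the end.
Terc, bases 1 to 60 (chr3:96414800-96414859): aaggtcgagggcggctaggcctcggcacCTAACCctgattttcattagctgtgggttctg
Terc, bases 364 to 423 (chr3:96414437-96414496): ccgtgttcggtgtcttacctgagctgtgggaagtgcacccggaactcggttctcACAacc
No 31-base word of Terc occurs in another annotated transcript.

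The gene tables held 13318395, 15352661 and 15812581 expected counts over gene rows in replicates 1, 2 and 3. Each library was quantified with 2 programs, called RSEM and kallisto here from the column names they write, and both give TPM, a level relative to all transcripts that is corrected for an effective length. All 8 macrophage markers had at least 1 RSEM TPM in every library, with a sum between 295 and 415 TPM, and none of 18 markers of T, B, neutrophil, fibroblast, endothelial and erythroid cells did, with a sum between 0.57 and 1.34 TPM and 9 of the 18 at 0. With kallisto the 18 summed to between 32.1 and 44.7 TPM, and 4 of them (Col1a1, Pecam1, Ms4a1 and Cd3d) passed 1 TPM in every library. Genes under 400 bases held 71.5%, 64.4% and 63.8% of all RSEM TPM in replicates 1, 2 and 3, against 45.2%, 41.5% and 42.6% of kallisto TPM.

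All 6 member ids had at least 1 TPM in all 3 libraries, with RSEM and with kallisto, where 18.3% of all gene ids did with RSEM and 32.6% with kallisto. The members spanned more than 4 orders of magnitude. Rmrp was highest, the SRP RNAs followed, Rpph1 came next, and Terc stood just above the threshold. Together the 6 ids held 7.001%, 9.50% and 10.9% of RSEM TPM in replicates 1, 2 and 3, but 0.889%, 0.658% and 0.789% of the expected counts.

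**Figure D1:**
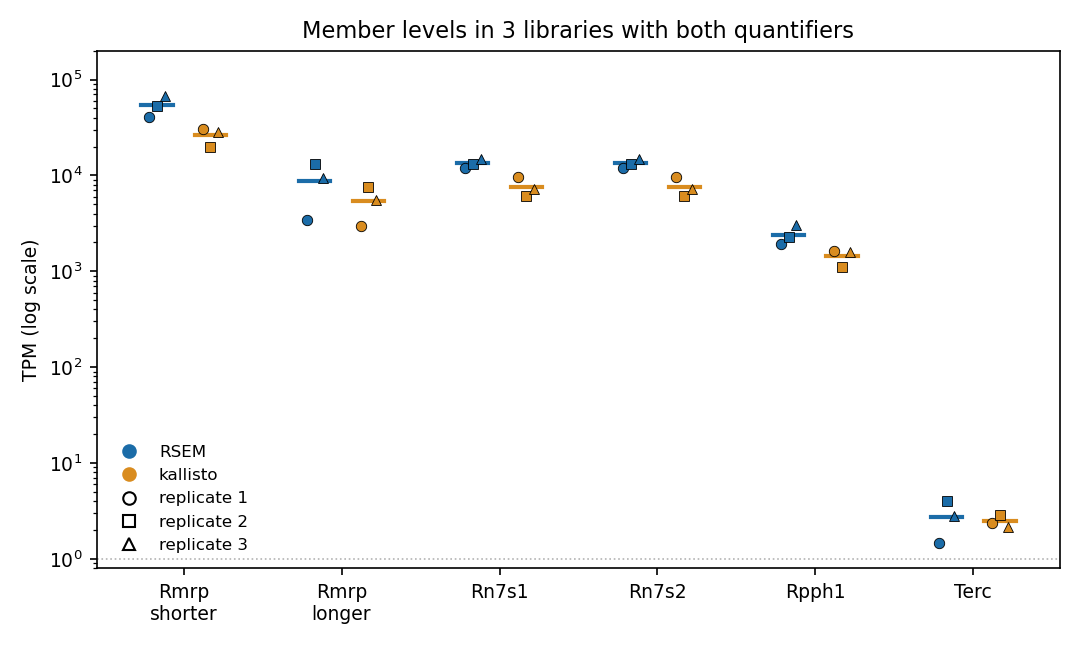
TPM of each member id (log axis) in the 3 libraries with RSEM (blue) and kallisto (orange); symbols are replicates, bars are means of 3 and the dotted line is 1 TPM. Rmrp, Rn7s1, Rn7s2 and Rpph1 lie between 1099.55 and 67313 TPM and Terc between 1.48 and 3.99 TPM.

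Rmrp, the RNA of RNase MRP, had the highest level of the group. The shorter id was at 40911, 52907 and 67313 RSEM TPM in replicates 1, 2 and 3, which ranked 5, 3 and 3 among all gene ids. The longer id was at 3444, 13199 and 9357 RSEM TPM. In bulk RNA, fewer cells of a type and less RNA per cell cannot be told apart. Replicate 1 was lowest for both ids, while the highest was replicate 3 for the shorter id and replicate 2 for the longer one. With kallisto the shorter id was at 30510, 19707 and 28398 TPM and the longer one at 2971, 7544 and 5594 TPM.

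The division of Rmrp reads between its ids varied more than their sum. The longer id held 8.49%, 21.8% and 13.4% of the Rmrp expected counts in the RSEM tables of replicates 1, 2 and 3, a mean of 14.6% ± 6.72 (SD, n = 3). It held 9.43%, 29.1% and 17.4% in the kallisto tables, and in both tables replicate 2 was highest and replicate 1 lowest. Between the highest and the lowest library, the shorter id differed 1.43-fold, the longer id 2.10-fold and their sum 1.22-fold, all in RSEM CPM, the count scaled to the gene total of its library. The posterior SD that the RSEM table gives for both ids was 202, 227 and 208 counts, at most 3.53% of the longer id's count.

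Summed over its ids, Rmrp had 67467, 63686 and 79044 expected counts in replicates 1, 2 and 3, or 0.507%, 0.415% and 0.4999% of a library. Those shares averaged 0.474% ± 0.0511 (SD, n = 3). The summed level was 62377 ± 16477 TPM with RSEM and 31575 ± 3754 TPM with kallisto (SD, n = 3 each). On the RSEM TPM scale replicate 1 was the lowest at 44355 TPM, although it had the largest share of counts.

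Rn7s1 and Rn7s2, the SRP RNA genes, had the same value as each other in every library. Each was given 23266, 16968 and 20396 expected counts and 11856, 13322 and 14851 RSEM TPM in replicates 1, 2 and 3, and 9534, 6142 and 7272 kallisto TPM. The posterior SD was 11.8%, 17.7% and 16.1% of the Rn7s1 count, far above the 0.327%, 0.456% and 0.303% of the shorter Rmrp id. Reads of identical genes cannot be assigned to one of them, so the sum of the pair is the usable value, and it was 46532, 33936 and 40791 expected counts, or 0.349%, 0.221% and 0.258% of a library. Replicate 1 was highest and replicate 2 lowest by that share, which differed 1.58-fold between them.

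The sum of the SRP RNAs came to 26686 ± 2996 TPM with RSEM and 15299 ± 3454 TPM with kallisto (SD, n = 3 each). The 16 other annotated genes that share 31-base words with Rn7s1 took almost none of the reads, with 2.49, 1.16 and 5.70 expected counts in all by RSEM in replicates 1, 2 and 3 and 132, 165 and 175 estimated counts by kallisto. Rn7s6, which shares 53.0% of the words, was at 1.37, 0.99 and 3.73 RSEM TPM and 2.18, 3.69 and 5.91 kallisto TPM. Mitochondrially encoded genes held 0.0497%, 0.0398% and 0.0315% of expected counts in replicates 1, 2 and 3, highest in replicate 1 and lowest in replicate 3. Coding genes of ribosomal proteins held 0.0946%, 0.113% and 0.0892%, highest in replicate 2. The part of RNA from outside the nucleus in the SRP RNA values was not tested.

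Rpph1, the RNA of RNase P, was far below the Rmrp level. It had 4409, 3440 and 4936 expected counts in replicates 1, 2 and 3, with 1941, 2277 and 3036 RSEM TPM and 1629, 1099.55 and 1580 kallisto TPM. Replicate 3 was highest with RSEM and replicate 1 with kallisto. Ccnb1ip1, which shares 70.2% of the 31-base words of Rpph1, was at 0 RSEM counts in every library and at most 0.228 kallisto TPM. Rprl1, Rprl2 and Rprl3, annotated RNase P RNA-like genes, had 0 RSEM counts in every library, and Rprl2 and Rprl3 had at most 0.173 kallisto TPM.

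Terc, the template RNA of telomerase, was near the limit of what these libraries can count. It had 6, 12 and 9 expected counts in replicates 1, 2 and 3, whose exact Poisson 95% intervals run from 2.20 to 13.1, from 6.20 to 20.96 and from 4.12 to 17.1 and cover counting error only. The 3 intervals overlap, but overlap is not a test, and a difference between libraries was not tested. The levels were 1.48, 3.99 and 2.83 TPM with RSEM and 2.37, 2.86 and 2.16 TPM with kallisto. Terc ranked 9409, 7546 and 8162 among all gene ids by RSEM TPM, while Tert, the catalytic protein of telomerase, had 0 RSEM counts in every library and 0.182, 0.264 and 0.157 kallisto TPM.

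The order of the levels was taken within each library on log2(RSEM TPM + 1). Summed Rmrp exceeded the summed SRP RNAs by 0.90, 1.31 and 1.37 in replicates 1, 2 and 3, a mean of 1.19 ± 0.25 (SD, n = 3) or 2.29-fold. It exceeded either SRP RNA gene alone 4.58-fold. Rn7s1, as 1 gene of the identical pair, exceeded Rpph1 by 2.48 ± 0.17 (SD, n = 3), 5.59-fold. The sum of the pair averaged 26686 RSEM TPM against 2418 for Rpph1. Rpph1 exceeded Terc by 9.36 ± 0.45 (SD, n = 3), 657-fold. Each of these log2 differences was positive in 3 of 3 libraries and larger than its spread. With 3 libraries, though, the exact permutation test that flips signs (two-sided) cannot go below p = 0.25, which each of them gave.

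Rn7s1, taken as 1 gene of its identical pair, and the longer Rmrp id were the one pair of neighbours that did not separate beyond their spread. Rn7s1 was higher by 1.78, 0.01 and 0.67 on log2(RSEM TPM + 1) in replicates 1, 2 and 3, a mean of 0.82 ± 0.89 (SD, n = 3, exact sign-flip permutation p = 0.25). With kallisto the difference was 1.68, -0.30 and 0.38, so the longer id was the higher one in replicate 2. The summed SRP RNAs were above the longer id in every library with both programs. In replicate 2 they were at 26644.5 RSEM and 12284.5 kallisto TPM, against 13199 and 7544 TPM for the longer id. The longer Rmrp id exceeded Rpph1 by 0.83, 2.53 and 1.62 in replicates 1, 2 and 3, a mean of 1.66 ± 0.85 (SD, n = 3).

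Which library looked richest in these RNAs depended on the scale. By share of expected counts the SRP RNAs were highest in replicate 1, and Rmrp was too. By RSEM TPM replicate 1 was the lowest of the 3 for Rmrp, for the SRP RNAs and for Rpph1. By kallisto TPM replicate 2 was the lowest for all of these.

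**Figure D2:**
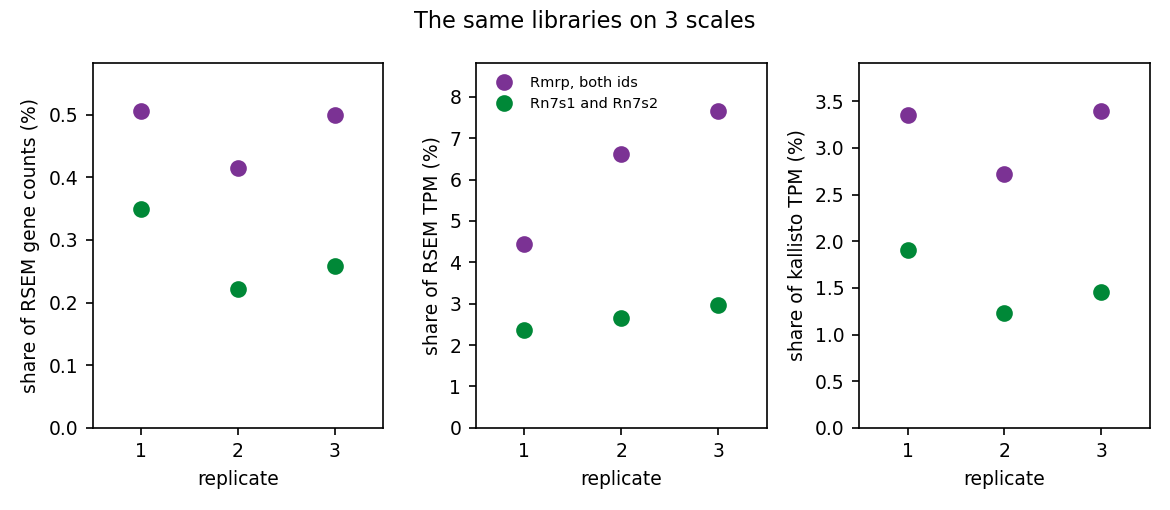
Summed Rmrp (purple) and summed Rn7s1 and Rn7s2 (green) in each library as a share of RSEM gene counts, of RSEM TPM and of kallisto TPM, all in percent on axes that start at 0. Replicate 1 has the largest share of counts, 0.507% and 0.349%, and the smallest share of RSEM TPM, 4.44% and 2.37%.

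The effective lengths, the number of positions a program allows for a fragment, differed more between libraries with RSEM than with kallisto. For the shorter Rmrp id the RSEM effective length was 82.1, 55.2 and 59.4 bases in replicates 1, 2 and 3, while kallisto used 105.6, 105.1 and 104.2 bases. For Rn7s1 it was 106.8, 74.8 and 80.2 bases with RSEM and 127.8, 127.1 and 125.7 bases with kallisto. The longest over the shortest library was 1.49-fold for the shorter Rmrp id with RSEM and 1.01-fold with kallisto. For Terc, the longest member, the RSEM ratio was 1.25-fold. A shorter effective length gives a higher TPM for the same count if the values of the other genes stay the same. Replicate 1 had the longest RSEM effective length for all 6 ids. TPM also depends on all other genes, and genes under 400 bases held 71.5%, 64.4% and 63.8% of RSEM TPM in replicates 1, 2 and 3. The part of each in the order of the libraries was not tested.

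**Figure D3:**
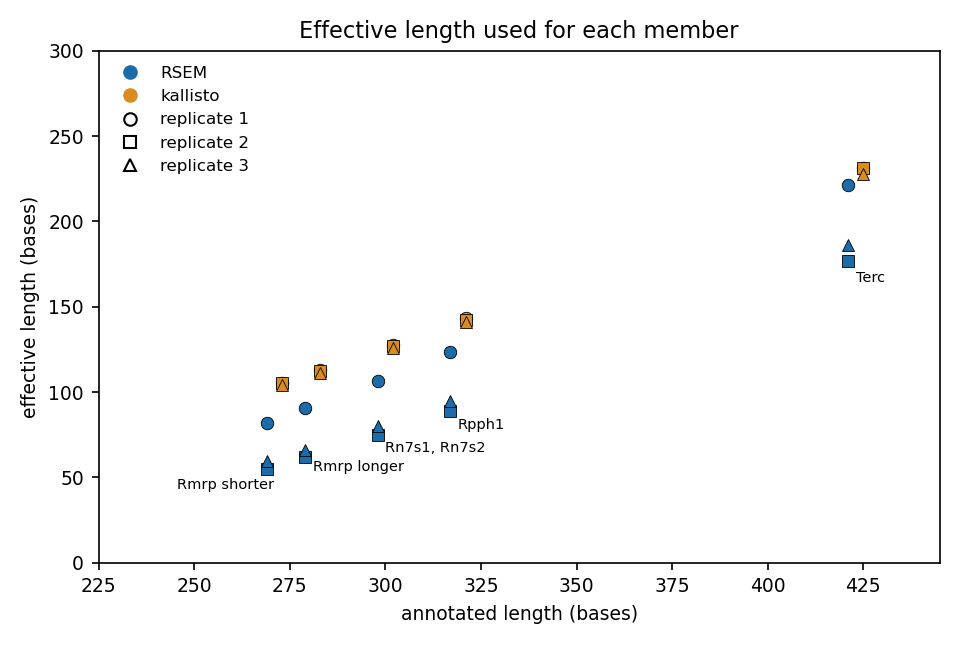
Effective length (bases) of each member against its annotated length (bases) with RSEM (blue) and kallisto (orange), with symbols for replicates; points of the 2 programs are moved apart sideways by a few bases. RSEM values are lower than kallisto values in every library and lie apart for replicate 1.

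The programs were compared over all 22893 gene ids with a mean of at least 10 counts in either table, as the difference RSEM minus kallisto in log2(TPM + 1) within a library, tested with limma (intercept only, Benjamini-Hochberg adjustment). The median gene was 0.77 lower with RSEM. At an adjusted p of 0.05, 0.861% of the genes were higher with RSEM and 78.7% lower. Of the 6 member ids 3 were called higher and 0 lower, and as Rn7s1 and Rn7s2 share 1 sequence these rest on 2 separate measurements.

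Rpph1 was higher by 0.75 with RSEM (SE 0.21, limma adjusted p = 0.0154, higher in 3 of 3 libraries), and Rn7s1 and Rn7s2 were each higher by 0.82 (SE 0.29, limma adjusted p = 0.0375, 3 of 3). The shorter Rmrp id was higher by 1.03 (SE 0.42) in 3 of 3 libraries but missed the threshold, with a limma adjusted p of 0.0577, as did the longer id at 0.59 (SE 0.25, limma adjusted p = 0.0645). Terc differed by 0.07 (SE 0.18, limma adjusted p = 0.742), positive in 2 of 3 libraries. Relative to the median gene these differences were 1.52 for Rpph1, 1.59 for Rn7s1, 1.80 and 1.36 for the Rmrp ids and 0.84 for Terc. Replicate 1 stood apart in each of them, as the shorter Rmrp id differed by 0.42, 1.42 and 1.25 in replicates 1, 2 and 3. Without replicate 1, 5 of the 6 ids were called higher, and without replicate 2 or without replicate 3 none was. Over all 22893 genes, 375, 167 and 146 were called higher without replicates 1, 2 and 3. With TPM rescaled over genes of an RSEM effective length of at least 200 bases, all 6 were called higher. So were 5063 of all 22893 genes, and the median gene was then 0.45 lower with RSEM in place of 0.77. The added calls thus came with a shift of the whole scale. The differences were then 1.81 and 1.36 for the Rmrp ids, 1.60 for Rn7s1, 1.53 for Rpph1 and 0.72 for Terc (limma adjusted p = 0.0258 for Terc, 3 of 3 libraries).

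For the shorter Rmrp id, the SRP RNAs and Rpph1 the 2 programs gave similar counts. The kallisto count was 1.05, 1.01 and 1.06 times the RSEM count of the shorter Rmrp id in replicates 1, 2 and 3, 1.05, 1.11 and 1.10 times that of the SRP RNAs, and 1.06, 1.10 and 1.10 times that of Rpph1. For the longer Rmrp id it was 1.18, 1.48 and 1.43 times, for Terc 1.83, 1.33 and 1.33 times, and over all genes it was 1.58, 1.79 and 1.73 times. On log2(CPM + 1), where no length enters, the shorter Rmrp id was higher with RSEM by 0.71 (SE 0.04, limma adjusted p = 4.05e-05) and Rpph1 by 0.64 (SE 0.03, limma adjusted p = 1.34e-05). On that scale 5 of the 6 ids were called higher, all but Terc, against 16.5% of all genes tested.

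The spread between libraries was measured with edgeR as a biological coefficient of variation, the between-library spread left after counting error. It was 0.181 over the 12505 genes that passed the expression filter. The 5 member ids that passed lay above that value, with 0.191 for the shorter Rmrp id, 0.197 for Rpph1, 0.201 for Rn7s1 and for Rn7s2, and 0.222 for the longer Rmrp id. These exceeded the values of 68.4%, 72.9%, 75.6% and 85.9% of the genes, in that order. With the Rmrp ids summed, an alternative chosen after seeing the data, Rmrp had 0.170. Terc did not pass the filter. With no filter on low counts the value over 22896 genes was 0.195, and the shorter Rmrp id at 0.191 lay below it. The other member ids lay above it. The member ids then exceeded between 29.8% of the genes, for the shorter Rmrp id, and 52.0%, for Terc. Without replicate 2 the value over all genes was 0.125 and the members lay between 0.114 and 0.146. Without replicate 1 the value over all genes was 0.195. The longer Rmrp id at 0.180 and Rn7s1 and Rn7s2 at 0.186 were then below it, and the shorter Rmrp id at 0.199 and Rpph1 at 0.203 above it. Without replicate 3 the members lay between 0.208 and 0.224, above the 0.206 over all genes.

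Profiles over the 3 libraries were compared by the Euclidean distance of centred log2(CPM + 1). Rpph1 lay 0.045 from the shorter Rmrp id, both being lowest in replicate 2. The shorter and the longer Rmrp ids lay 1.12 apart, and Rn7s1 lay 0.125 from Rn7sk, the 7SK RNA that holds back elongation by RNA polymerase II. Among 7170 other genes with a mean of at least 100 counts, those closest to the shorter Rmrp id were Gm49730 at 0.0089, Plxnd1 at 0.0100 and Nxf1 at 0.0103. Those closest to Rpph1 were Gm43788 at 0.0051, Ppp2r5a at 0.0076 and Slc4a3 at 0.015. Rn7s1 was closest to Rnf145 at 0.0021, Hivep3 at 0.0229 and Gbp4 at 0.0260.
For the longer Rmrp id the closest were Gng4 at 0.0124, Gm14391 at 0.0328 and Tpd52 at 0.0495. Terc was closest to Arid3a at 0.0024, Layn at 0.0045 and Atp5j at 0.0053. At 0.451, 0.782 and 0.569 CPM in replicates 1, 2 and 3, Terc lay below the 1 added before the log. That addition flattens its profile, so its small distances and its number of close genes do not show a shared profile. Of the 7170 genes, 103 lay within 0.1 of the shorter Rmrp id, 7 of the longer one, 84 of Rpph1, 52 of Rn7s1 and 599 of Terc.

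The coding genes around Rmrp, the SRP RNA genes and Rpph1 had levels far below those members. Ccdc107, on the strand opposite Rmrp and overlapping the shorter id by 159 bases, was at 0.08, 0.85 and 1.61 RSEM TPM in replicates 1, 2 and 3 and at 3.61, 3.08 and 5.34 kallisto TPM. Annotated Ccdc107 transcripts lie opposite bases 36 to 159 of the shorter id, 124 bases or 45.8% of it. No label or header gives the strand setting, so reads of Rmrp and of Ccdc107 in the shared stretch cannot be told apart. On the other side, Sit1 had no count in any library. Parp2, a poly(ADP-ribose) polymerase gene that starts 73 bases from Rpph1 on the opposite strand, was at 6.03, 12.25 and 5.15 RSEM TPM and 24.7, 27.8 and 21.4 kallisto TPM.

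Rps29, a ribosomal protein gene 108 bases from Rn7s1, was at 4.20, 8.82 and 4.09 RSEM TPM, and Nemf, 4016 bases from Rn7s2, was at 53.0, 63.3 and 56.4 RSEM TPM. The short genes Gm47287, Gm47295 and Gm47305, which overlap the SRP RNA genes on their strand, had no count with either program, and Gm47299 had none with RSEM. Lrr1, on the far side of Rn7s1, was at 0 RSEM TPM in every library, and Gm9887, beyond Rn7s2, was at 1.56, 2.69 and 2.60 RSEM TPM. The nearest coding genes of Terc were Fcgr1, 120467 bases away, at 1.90, 2.34 and 1.22 RSEM TPM, and BC107364, 18928 bases away, with no RSEM count but 5.49, 4.36 and 3.68 kallisto TPM, above Terc with that program. Ttc5, on the far side of Rpph1, was at 1.27, 3.65 and 1.11 RSEM TPM, and Arhgef39 near Rmrp at 0.48, 0.71 and 0.55 RSEM TPM.

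**Figure D4:**
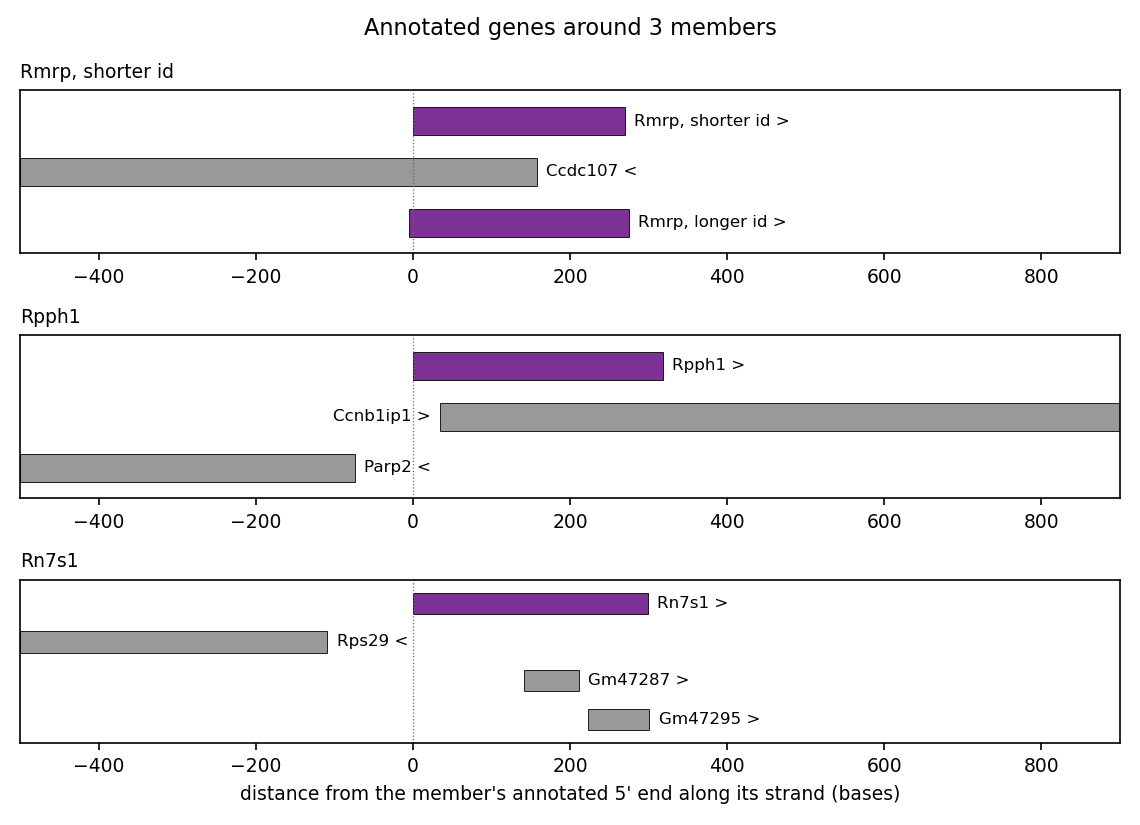
Annotated genes around the shorter Rmrp id, Rpph1 and Rn7s1 by distance in bases from the 5′ end of each, along its strand; arrowheads give the direction of each gene, members are purple and other genes grey, which are cut at the edge. Ccdc107 overlaps Rmrp by 159 bases and Ccnb1ip1 overlaps Rpph1 by 284 bases.

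The genes of the proteins that bind Rmrp, Rpph1 and the SRP RNAs had TPM levels far below those RNAs, while several genes of the telomerase list were above Terc. Of all 22028 protein-coding genes, 35.7% had at least 1 RSEM TPM in all 3 libraries, and the counts of each protein list below stand beside that share. In the RNase P and MRP protein list 3 of 11 genes had at least 1 RSEM TPM in all libraries, Pop4 at 4.64 ± 1.29, Pop5 at 3.99 ± 1.08 and Rpp30 at 1.61 ± 0.40 TPM (SD, n = 3 each). Pop4, Pop5 and Rpp30 encode subunits that both enzymes hold, and with kallisto their means were 5.15, 4.93 and 11.1 TPM. Rpp40 was at 0.03 ± 0.03 TPM with RSEM but at 1.01 ± 0.34 TPM with kallisto (SD, n = 3 each). Rpp25 had no count with either program. The median of log2(TPM + 1) over the list was 0.74 ± 0.26 with RSEM and 1.05 ± 0.16 with kallisto, against 0.29 ± 0.07 with RSEM and 1.22 ± 0.14 with kallisto over all 22028 protein-coding genes (SD, n = 3 each).

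In the SRP list 9 of 10 genes with a row passed 1 RSEM TPM. Srp54a was highest at 63.8, 77.2 and 63.5 TPM in replicates 1, 2 and 3, followed by Srp54b at 51.3 ± 15.5 TPM and Srp72 at 40.1 ± 6.67 TPM (SD, n = 3 each). Srp54 is the subunit that binds the signal peptide, and Srp72 binds SRP RNA together with Srp68. Srp14, a subunit of the end that pauses elongation, was at 3.02 ± 0.67 TPM, and Srprb, a subunit of the receptor, was lowest at 0.72 ± 0.25 TPM (SD, n = 3 each). The list's median was 3.07 ± 0.22 with RSEM and 4.38 ± 0.16 with kallisto on log2(TPM + 1) (SD, n = 3 each). Reads of the near-identical Srp54a, Srp54b and Srp54c can be split by the counting, so their single values are uncertain.

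In the telomerase and H/ACA list 6 of 10 genes passed, with Tep1, a telomerase-associated protein, at 27.7 ± 4.33 TPM, Nhp2 at 5.40 ± 1.12 TPM and Dkc1, the pseudouridine synthase of H/ACA particles, at 3.92 ± 1.38 TPM (RSEM, SD, n = 3 each). Naf1, an assembly factor, was at 0.48 ± 0.08 TPM (SD, n = 3) and Tert was lowest. The list's median was 1.55 ± 0.20 with RSEM and 2.85 ± 0.15 with kallisto. In the RNA polymerase III list 23 of 31 genes passed, with a median of 2.33 ± 0.28 with RSEM and 3.24 ± 0.14 with kallisto (SD, n = 3 each). Brf1, the initiation factor of tRNA genes, was highest at 38.8 ± 6.66 TPM, then Bdp1, its partner at the promoter, at 22.9 ± 4.63 TPM and Ssb, the La protein that binds the 3′ ends of these transcripts, at 17.2 ± 3.07 TPM (SD, n = 3 each). Polr3g, the subunit whose place Polr3gl can take, was lowest with RSEM at 0.21 ± 0.14 TPM, and Polr3k was at 0.45 ± 0.14 TPM (SD, n = 3 each). With kallisto Polr3g was at 1.47 ± 0.66 TPM and Polr3k at 3.33 ± 0.23 TPM (SD, n = 3 each).

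Of the other RNA polymerase III transcripts, 1 of 9 gene ids passed with RSEM and 5 of 9 with kallisto. Rn7sk was at 8576, 10377 and 11429 RSEM TPM in replicates 1, 2 and 3 and at 7912, 4941 and 5833 kallisto TPM, between the SRP RNAs and Rpph1. Bc1 was listed at 0 with RSEM in every library but at 425, 401 and 316 kallisto TPM, and Rny3, a Y RNA, was at 0 with RSEM but at 14.6, 28.2 and 26.6 kallisto TPM. Rny1, another Y RNA, was likewise at 0 with RSEM and at 8.20, 2.40 and 11.0 kallisto TPM. Vaultrc5, a vault RNA, was at 11.25 RSEM TPM in replicate 1 and 0 in the others, and at 3.87, 9.25 and 1.53 kallisto TPM. Unlike Bc1, Rny1, Rny3 and Vaultrc5, of 168, 112, 102 and 143 annotated bases, Rn7sk and the 6 member ids had counts from both programs in every library.

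**Figure D5:**
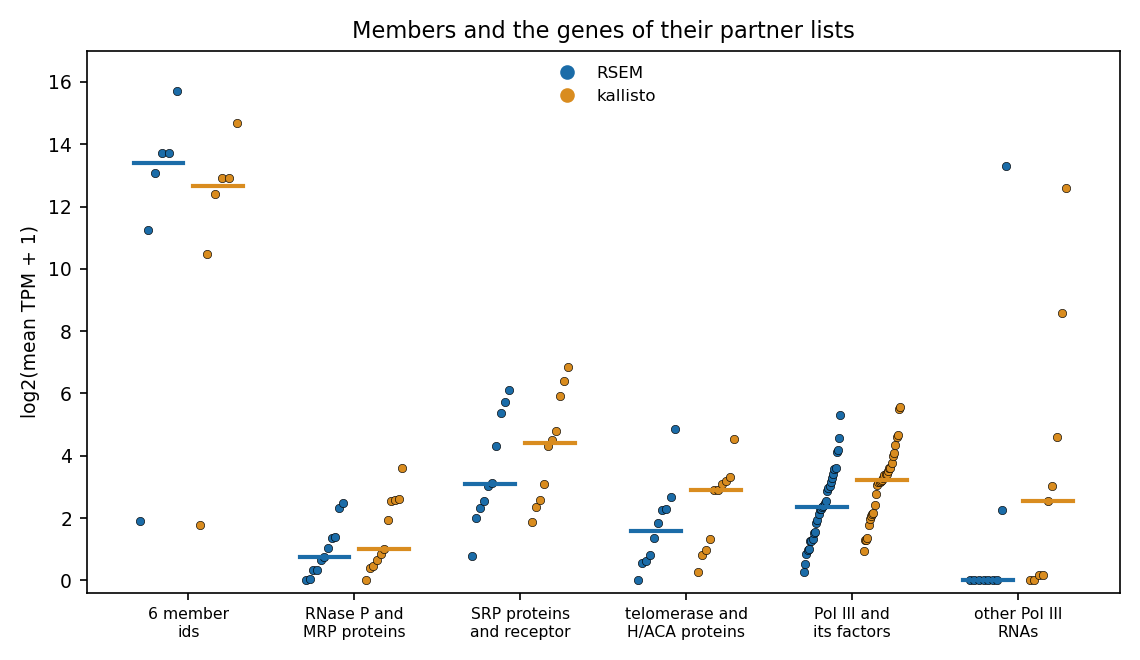
log2(mean TPM + 1) over 3 libraries of each member id and of each gene of the 5 lists with RSEM (blue) and kallisto (orange); bars are medians over the points. The 5 member ids other than Terc lie above every protein gene of the lists with both programs, and of the other genes Rn7sk alone reaches their range.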

How the data were processed

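Chromatin-fraction total RNA of 3 libraries was analysed. The assembly was mm10, per the labels, and the annotation GENCODE M21, per the text files deposited with the libraries. No program, version or strand setting is named in the labels or headers. Each library's gene table holds, per the file headers, expected counts, TPM, effective lengths and posterior SDs, and a transcript table holds estimated counts and TPM, both used as the authors deposited them. The transcript values were summed per gene id, and effective lengths of a gene with 1 transcript were used as they stood. All 55536 gene ids matched the annotation, and 86 had no row in the transcript table, so they were left out of the comparison of programs and count as 0 for kallisto elsewhere. Rows naming no gene (spike-ins, and phiX at 1.40%, 0.352% and 0.354% of a library in replicates 1, 2 and 3) stayed out of shares.

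The sequence of the SRP RNA genes is not reported here. Levels are means ± SD. Expected counts were rounded for edgeR 4.0.16 (TMM, filterByExpr), and limma 3.58.1 was fitted with a variance trend on the mean level and a pseudocount of 1 TPM. The limma and edgeR fits were tested on simulated data. Libraries differed by more than counting noise, with chi-square per degree of freedom between 15.3 and 36.9. The p-values concern differences taken within a library, between programs or between members, and how steady these were over libraries of 1 donor entry. The members and lists were chosen with earlier results of these data known. Named genes were every member id, the 3 highest and 2 lowest of each list, overlapping and nearest coding genes, the 3 closest profiles, and genes sharing at least 50% of a member's words; a few others were named after their values were seen. R was 4.3.3 and python 3.11.15.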

Additional observations from a re-analysis of the deposited data

How the results depend on the processing

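No paired analysis was possible because there was 1 group of samples, with no second group to share replicate numbers; the programs and the members were compared within libraries. The number of genes higher with RSEM was 197, but 3774 on CPM, 5063 with TPM rescaled over genes of effective length of at least 200 bases, and between 146 and 375 when 1 library was left out. It was 203 with a pseudocount of 0.1 TPM, 202 with no variance trend and 223 of 33463 with no filter on low values. Of the 6 member ids 3 were called higher, but 5 with a pseudocount of 0.1 TPM, on CPM or with no variance trend, 6 with TPM rescaled, 0 with no filter on low values, and between 0 and 5 when 1 library was left out. The difference of Terc lay between -0.082 and 0.325 with 1 library left out, and changed sign to -0.0347 without replicate 3 and to -0.082 without replicate 2. The cause was not tested. The order of the members kept its direction in all 7 alternatives for each of 7 pairs, counting the mean difference. Gene ids at 1 TPM numbered 10143, but 18121 with kallisto and 5441 at a threshold of 5 TPM, where coding genes numbered 4473 in place of 7870. At 5 TPM the RNase P and MRP list had 0 genes, the telomerase list 1 and the RNA polymerase III list 10. The RNase P and MRP list had 5 in place of 3 with kallisto or at 0.5 TPM, and between 3 and 5 with 1 library left out, and the other RNA polymerase III RNAs had 5 in place of 1 with kallisto. Summing ids of 1 symbol was chosen after seeing the data. With 1 group of 3 libraries no contrast between conditions can be made, counts as low as those of Terc limit its precision, and RSEM effective lengths of at most 123.6 bases enter the TPM of the other members directly.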
